A study of Homo sapiens with 10 samples.

Results

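The genes described here are 9 markers of the megakaryocyte lineage, ITGA2B, ITGB3, GP1BA, GP1BB, GP9, SELP, PF4, PLEK and FLI1, picked by symbol from the 23284 genes of an expression table. All 9 were listed in the table. The cells were K562, an established human cell line from chronic myeloid leukemia that expresses erythroid genes and is used as a model of both erythroid and megakaryocytic differentiation. They were cultured for 48 h with the solvent DMSO, with CBP30 at 2 or 5 µM, or with I-CBP112 at 2 or 5 µM, and no other agent or genetic change is named for these samples. Both compounds are inhibitors of the bromodomain of the acetyltransferases CREBBP and EP300, the part of these proteins that binds acetylated lysine. RNA from 2 biological replicates of each of the 5 conditions, 10 samples in all, was sequenced, and all samples come from the same cell line. The question was whether the decrease in erythroid genes under these compounds came with a gain in megakaryocyte genes.

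Megakaryocytes are the large bone marrow cells that release platelets, and they share a progenitor with red blood cells. Both lineages use the transcription factors GATA1, TAL1, GFI1B and NFE2, while FLI1 and RUNX1 favour the megakaryocyte fate and KLF1 the erythroid one. A maturing megakaryocyte acquires the surface receptors by which platelets stick and aggregate, then alpha granules filled with proteins such as platelet factor, and the cytoskeleton needed for platelet release.

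The genes differed widely in level before any treatment. Levels are given as FPKM, fragments scaled by transcript length and by the mapped fragments of the library, which can be compared between genes. In DMSO, GP1BB was at 111.7 ± 5.45 FPKM (mean ± SD, n = 2 here and for every mean below), higher than 96.6% of all genes in the table. ITGA2B was at 2.52 ± 0.0261 FPKM and GP1BA at 0.574 ± 0.0137 FPKM. PLEK, ITGB3 and FLI1 were lower still, at 0.208, 0.203 and 0.0199 FPKM. GP9, SELP and PF4 were listed at 0 in all 10 samples, as was PF4V1, the close copy of PF4. The table gives no read counts and a listed 0 can be a failed estimate, so these zeros are given only as listed. Of 55 other megakaryocyte receptor, granule and signalling genes, CLEC1B, P2RY12, TREML1 and GUCY1A3 were also at 0 throughout, and VWF, which encodes von Willebrand factor, did not pass 0.0505 FPKM.

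A fold change was tested with limma on log2(FPKM + 1) over the 12788 genes that averaged 0.5 FPKM or more, and a gene was called at a Benjamini-Hochberg adjusted p under 0.05. The added 1 makes the fold changes of low genes smaller than the ratios of their FPKM values. Of the 9 genes, 3 passed this minimum, ITGA2B, GP1BA and GP1BB, and 6 did not. Relative to each other, the libraries held between 0.916 and 1.09 times the mean depth, as read from the step between low values. Only small differences between libraries entered this estimate, so it could not show a large difference in depth. The correlation of log2 values between replicates was between 0.962 and 0.976. The replicates of 2 µM CBP30 differed with transcript length (Spearman's rho of -0.566 over 12183 genes, against -0.148 to 0.271 in the other groups), and replicate 1 of that group listed EEF1A1, a gene all cells use, at 0 FPKM. Results that rest on this group are therefore given with and without each of its samples where the call changed.

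The proximal promoters of ITGA2B and GP1BB are shown. Of the members that passed the expression minimum, these were the ones called lower than DMSO. They run from 250 bases before the annotated start to 50 bases after it, on the strand of the gene, and were taken from RefSeq (GRCh38.p14). Capitals mark words searched on both strands: AGATAA or alternatively TGATAA, the variants that end in G (AGATAG or alternatively TGATAG) for GATA factors, CCGGAA or alternatively CAGGAA for ETS factors such as FLI1, and TGTGGT for RUNX factors. The ITGA2B promoter is at chr17:44389600-44389899 on the minus strand and the GP1BB promoter at chr22:19723289-19723588 on the plus strand.
ITGA2B: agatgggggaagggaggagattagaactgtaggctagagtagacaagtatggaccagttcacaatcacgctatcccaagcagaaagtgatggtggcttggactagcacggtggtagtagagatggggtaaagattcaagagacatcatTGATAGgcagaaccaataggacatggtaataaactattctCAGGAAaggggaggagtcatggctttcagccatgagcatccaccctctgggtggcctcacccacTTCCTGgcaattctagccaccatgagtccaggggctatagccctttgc
GP1BB: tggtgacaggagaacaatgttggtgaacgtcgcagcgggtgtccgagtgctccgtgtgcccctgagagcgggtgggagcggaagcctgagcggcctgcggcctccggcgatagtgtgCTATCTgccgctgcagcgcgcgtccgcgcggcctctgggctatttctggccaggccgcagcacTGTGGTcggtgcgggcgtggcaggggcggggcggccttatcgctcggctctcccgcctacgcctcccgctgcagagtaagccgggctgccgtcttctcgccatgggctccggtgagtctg
The ITGA2B window held TGATAG with its first base 102 bases before the start, CAGGAA 62 bases before it and TTCCTG, the reverse complement of CAGGAA, 2 bases after it. The GP1BB window held CTATCT, the reverse complement of AGATAG, 133 bases before the start and TGTGGT 70 bases before it. A GATA word was found in 24.97% of 35116 promoter windows of this length, an ETS word in 41.4% and the RUNX word in 13.1%, so these matches are common. Windows were found for 5 of the 9 genes, the others being GP9, SELP and PLEK, which all held TGTGGT. A match describes the letters only, and a word that was not found says only that these letters are not in the window.

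ITGA2B fell with CBP30 at both concentrations. It encodes integrin alpha-IIb, known as CD41, which pairs with the product of ITGB3 to form the fibrinogen receptor of platelets and is an early marker of the lineage (hg19, chr17:42449548-42467017, minus strand). It was at 2.54 and 2.50 FPKM in DMSO, 0.839 and 0.982 FPKM in 2 µM CBP30, and 0.431 and 0.480 FPKM in 5 µM CBP30. The corresponding values were 2.41 and 2.16 FPKM in 2 µM I-CBP112 and 1.91 and 1.95 FPKM in 5 µM I-CBP112. Both CBP30 groups lay below every other sample and did not overlap each other, and both I-CBP112 groups lay below DMSO by a much smaller margin.

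The mean level of ITGA2B was 36.1% of the DMSO mean at 2 µM CBP30 and 18.1% at 5 µM, a 5.53-fold lower level. On the log2(FPKM + 1) scale the differences were -0.88 (SE 0.0746, limma adjusted p = 0.000342) and -1.27 (SE 0.0746, limma adjusted p = 2.84e-05). The step from 2 to 5 µM CBP30 was a further -0.39 (limma adjusted p = 0.00992), a call that was lost without replicate 1 of 5 µM CBP30 (adjusted p = 0.0572) and when only these groups were fitted (adjusted p = 0.123). With I-CBP112 the differences from DMSO were -0.10 at 2 µM and -0.26 at 5 µM (limma adjusted p = 0.640 and 0.0840), with 95% intervals of -0.28 to 0.07 and -0.44 to -0.09. The 5 µM value passed the threshold without either sample of 2 µM CBP30 (adjusted p = 0.0283 and 0.0280). In bulk RNA, fewer cells that express a gene and less RNA per cell cannot be told apart.

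ITGB3, the beta-3 partner chain, was at or below 0.235 FPKM in every sample and did not pass the expression minimum. It was at 0.235 and 0.172 FPKM in DMSO, 0.0775 and 0.0895 FPKM in 2 µM CBP30 and 0.215 and 0.235 FPKM in 5 µM CBP30. In I-CBP112 it was at 0.132 and 0.114 FPKM at 2 µM and at 0.0908 and 0.148 FPKM at 5 µM. The lower CBP30 concentration and both I-CBP112 groups were thus below DMSO, while 5 µM CBP30 overlapped DMSO, so its pattern did not follow that of its partner ITGA2B. With the expression minimum removed and 19308 genes tested, ITGB3 was called lower in 2 µM CBP30 (log2 difference -0.15, limma adjusted p = 0.0245) and in none of the other 3 comparisons with DMSO.

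GP1BB, GP1BA and GP9 encode subunits of the complex that binds von Willebrand factor on platelets. The gene measured as GP1BB (hg19, chr22:19711062-19712294, plus strand) was at 115.5 and 107.8 FPKM in DMSO and at 45.1 and 46.1 FPKM in 5 µM CBP30. In 2 µM CBP30 its samples were at 131 and 67.0 FPKM, one above and one below DMSO. In I-CBP112 they were at 90.5 and 114 FPKM at 2 µM and 103 and 94.97 FPKM at 5 µM. Only 5 µM CBP30 was below all samples of the other groups.

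In 5 µM CBP30 the mean of GP1BB was 40.8% of that in DMSO, a difference of -1.27 on the log2 scale (SE 0.274, limma adjusted p = 0.00771). In 2 µM CBP30 the difference was -0.25 (SE 0.274, limma adjusted p = 0.511). That value rested on which of the 2 samples was used: it was -0.73 without replicate 1 (limma adjusted p = 0.00801) and 0.23 without replicate 2 (limma adjusted p = 0.177). The I-CBP112 differences were -0.14 at 2 µM and -0.17 at 5 µM (limma adjusted p = 0.914 and 0.791), and their 95% intervals of -0.78 to 0.51 and -0.82 to 0.47 were wide.

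**Figure D1:**
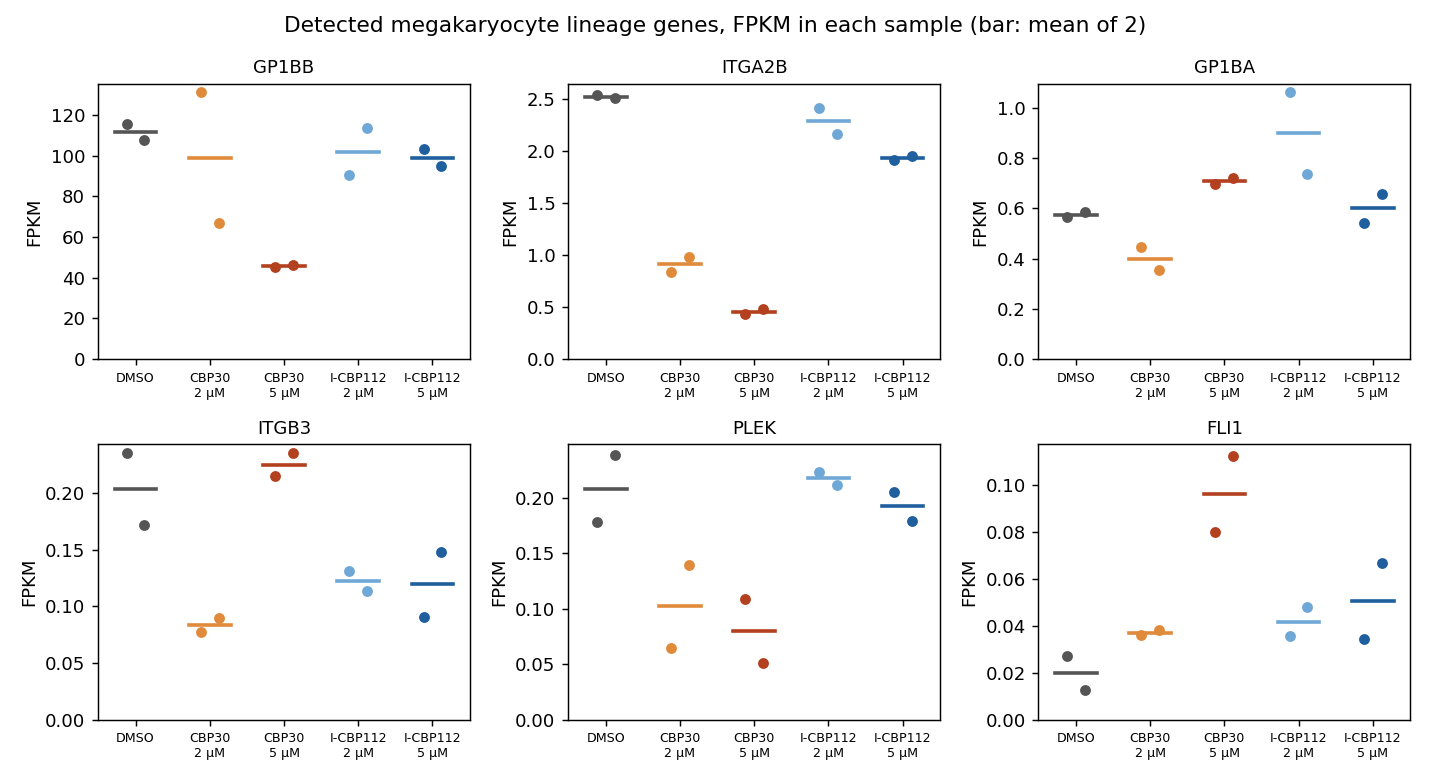
FPKM of the 6 megakaryocyte genes above 0 in at least 1 sample, by condition, with a point for each sample and a bar for the mean of 2, on linear axes from 0 that differ between genes. ITGA2B steps down from 2.52 FPKM in DMSO to 0.456 FPKM in 5 µM CBP30 and GP1BB from 111.7 to 45.6 FPKM, and FLI1 stands at 0.0199 FPKM in the former and 0.0964 FPKM in the latter.

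The level of GP1BB cannot be read apart from its neighbour. SEPT5, a septin gene that lies directly before GP1BB on the same strand (hg19, chr22:19702026-19711747), appears in the table as sep-05, the form in which a spreadsheet stores that symbol as a date. Of the 959 exonic bases of GP1BB, 412 are shared with exons of SEPT5 and all 959 with the annotated readthrough transcript SEPT5-GP1BB, so a read from the shared bases could belong to any of them. They lie on the same strand, so stranded libraries do not separate them.

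The neighbour fell at both CBP30 concentrations. The sep-05 row was at 164 and 155 FPKM in DMSO, 89.1 and 71.3 FPKM in 2 µM CBP30 and 37.2 and 38.2 FPKM in 5 µM CBP30. Its values were 134 and 155 FPKM in 2 µM I-CBP112 and 128 and 123 FPKM in 5 µM I-CBP112. The CBP30 samples were all below the DMSO and I-CBP112 samples and the 2 CBP30 concentrations did not overlap. The differences from DMSO were -0.995 and -2.05 with CBP30 (limma adjusted p = 0.00105 and 2.05e-05) and -0.15 and -0.35 with I-CBP112 (limma adjusted p = 0.643 and 0.118), at 2 and 5 µM in that order. The readthrough row was called in 5 µM CBP30 only (log2 difference -1.65, limma adjusted p = 0.000254; at 2 µM -0.51, adjusted p = 0.0512). Without replicate 1 of 2 µM CBP30 the readthrough row was also called at 2 µM (-0.75, limma adjusted p = 0.00801), and without replicate 2 the difference was -0.27.

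The ratio of GP1BB to SEPT5 was 0.702 and 0.694 in DMSO, 1.47 and 0.939 in 2 µM CBP30 and 1.21 and 1.21 in 5 µM CBP30. In the 4 I-CBP112 samples it was between 0.676 and 0.805. GP1BB thus kept a larger share of its DMSO level than its neighbour did in every CBP30 sample. Summed over the 3 rows, which was chosen after the values were seen, the locus was lower by -0.62 in 2 µM CBP30 (limma adjusted p = 0.0400) and by -1.69 in 5 µM CBP30. How much of the GP1BB row comes from the platelet transcript itself was not tested.

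GP1BA, the chain that carries the von Willebrand factor site, was low in all samples and was not called in any treatment. It was at 0.564 and 0.584 FPKM in DMSO, 0.444 and 0.355 FPKM in 2 µM CBP30 and 0.696 and 0.721 FPKM in 5 µM CBP30. In I-CBP112 it was at 1.06 and 0.738 FPKM at 2 µM and 0.541 and 0.658 FPKM at 5 µM. The samples of 2 µM CBP30 were the lowest and those of 2 µM I-CBP112 the highest. The log2 differences from DMSO were -0.17, 0.12, 0.27 and 0.02 in that order (limma adjusted p = 0.236, 0.377, 0.305 and 0.944), and the 95% interval for 2 µM I-CBP112 ran from 0.03 to 0.51. GP9, the small chain that completes the complex with GP1BA and GP1BB, was listed at 0 throughout, as was SELP, which encodes P-selectin, the adhesion receptor that moves from alpha granules to the platelet surface. No fold change is given for these.

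PF4, which encodes the platelet factor 4 chemokine stored in alpha granules, was also listed at 0 in all samples. PLEK encodes pleckstrin, the main protein kinase C substrate of platelets. It was at 0.178 and 0.239 FPKM in DMSO, 0.0651 and 0.140 FPKM in 2 µM CBP30 and 0.109 and 0.0513 FPKM in 5 µM CBP30. All 4 CBP30 samples were below both DMSO samples, and the I-CBP112 samples, between 0.179 and 0.223 FPKM, lay within the DMSO range. With no expression minimum, PLEK was called lower in 5 µM CBP30 (log2 difference -0.16, limma adjusted p = 0.0282) and not in 2 µM CBP30 (-0.13, limma adjusted p = 0.0756).

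FLI1, the ETS factor that drives megakaryocyte genes, had its highest values in 5 µM CBP30, at a very low level. It was at 0.0271 and 0.0127 FPKM in DMSO, 0.0362 and 0.0381 FPKM in 2 µM CBP30 and 0.0802 and 0.113 FPKM in 5 µM CBP30. In I-CBP112 it was at 0.0357 and 0.0481 FPKM at 2 µM and 0.0346 and 0.0668 FPKM at 5 µM. All treated samples were above both DMSO samples, and 5 µM CBP30 was above all other samples. With no expression minimum the difference in 5 µM CBP30 was 0.10 on the log2 scale (limma adjusted p = 0.0108), and 0.71 with 0.1 in place of 1 added to the FPKM (limma adjusted p = 0.00943). None of the other treatments was called against DMSO.

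The FLI1 values were small multiples of a single step. After scaling by relative depth they were 2 and 1 times the lowest value in DMSO, 3 and 3 in 2 µM CBP30, 7 and 9 in 5 µM CBP30, 3 and 4 in 2 µM I-CBP112 and 3 and 6 in 5 µM I-CBP112, each within 0.131 of a whole number. If a step is 1 read, 16 reads in 5 µM CBP30 stand against 3 in DMSO. This is a depth-scaled ratio of 4.88 with an exact 95% interval of 1.40 to 26.1, which covers counting error only. For 2 µM CBP30 and for I-CBP112 at 2 and 5 µM the ratios were 1.95, 2.15 and 2.63, with intervals that included 1. Even in 5 µM CBP30 the level of FLI1 was 0.0964 ± 0.0229 FPKM. A higher mean in 5 µM CBP30 at such a level was not particular to FLI1. Among other megakaryocyte genes near 0, VWF was at 0.00859 FPKM in DMSO and 0.0424 FPKM in 5 µM CBP30, and GP5 at 0.0162 and 0.0764 FPKM. Not all of them rose, since LY6G6F was at 0.0686 and 0 FPKM.

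None of the 3 tested genes was called higher than DMSO by limma in any treatment. At an unadjusted p under 0.05 there was 1 such case, GP1BA in 2 µM I-CBP112 (limma, unadjusted p = 0.0347). In 2 µM CBP30, 1 of the 3 tested genes was called lower, ITGA2B, where 16.3% of all tested genes were called lower and 15.9% higher. In 5 µM CBP30, 2 of 3 were called lower, ITGA2B and GP1BB, against 25.4% of all genes lower and 21.2% higher. In I-CBP112 none of the 3 was called at 2 µM (0.735% of all genes lower, 0.868% higher) or at 5 µM (3.28% lower, 3.84% higher), where ITGA2B had an unadjusted p of 0.00904. The 6 genes below the expression minimum entered no such count, and with the minimum removed FLI1 in 5 µM CBP30 was the member called higher.

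The compounds were compared at matched concentrations in 6 pairs of gene and dose, with p adjusted over all tested genes. ITGA2B was lower with CBP30 than with I-CBP112 at 2 µM (log2 difference -0.78, 95% interval -0.96 to -0.61, limma adjusted p = 0.00194) and at 5 µM (-1.01, -1.19 to -0.83, adjusted p = 0.000220). GP1BB was lower with CBP30 at 5 µM (-1.10, -1.75 to -0.46, limma adjusted p = 0.0224) and not called at 2 µM (-0.11, -0.76 to 0.53, limma adjusted p = 0.796). The 5 µM call for GP1BB was lost without any 1 of the 4 samples compared (adjusted p between 0.0860 and 0.112). GP1BA was lower with CBP30 at 2 µM (-0.44, -0.68 to -0.20, limma adjusted p = 0.0336), a call lost without replicate 1 of 2 µM I-CBP112 (adjusted p = 0.132) and without any 1 sample of DMSO, 5 µM CBP30 or 5 µM I-CBP112 (adjusted p between 0.0553 and 0.0584). With only these groups fitted, neither 2 µM call was kept (adjusted p = 0.137 for ITGA2B and 0.258 for GP1BA). GP1BA was not called at 5 µM, where the difference was 0.10 with an interval of -0.14 to 0.34.

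Between the compounds, 2 of 3 members were therefore lower with CBP30 at 2 µM, where 8.45% of all genes were lower and 7.13% higher, and 2 of 3 at 5 µM, where 17.9% were lower and 13.6% higher. From 2 to 5 µM CBP30, ITGA2B and GP1BB were called lower (2 of 3, against 21.3% of all genes lower and 17.6% higher), GP1BB by -1.02 (limma adjusted p = 0.0265), and the GP1BB call was lost without either 5 µM sample (adjusted p = 0.112 and 0.110). That GP1BB difference was -0.54 without replicate 1 of 2 µM CBP30 and -1.50 without replicate 2. From 2 to 5 µM I-CBP112 none of the 3 was called (0.0547% of all genes higher and 0.00782% lower). The step between concentrations was not called as different between the compounds for any of the 3 genes. The differences between steps were -0.23 for ITGA2B, 0.53 for GP1BA and -0.99 for GP1BB (limma adjusted p = 0.166, 0.0706 and 0.126).

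The other genes of the lineage moved in both directions. Of 55 receptor, granule and signalling genes outside the 9, 32 passed the expression minimum. In 2 µM CBP30, 3 of them were called higher and 17 lower, against 15.9% of all tested genes higher and 16.3% lower. Their median log2 difference was -0.23 against 0.01 for all tested genes. In 5 µM CBP30, 8 were higher and 13 lower, with a median of -0.06 against -0.01. Of all tested genes 21.2% were higher and 25.4% lower, so the number higher was near that share. I-CBP112 gave 0 higher and 2 lower at 2 µM and 3 higher and 3 lower at 5 µM. The shares of all tested genes were 0.868% higher and 0.735% lower at 2 µM, and 3.84% and 3.28% at 5 µM. Without either DMSO sample the 17 became 10.

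Among the 9 tested receptors, CD9 and TBXA2R rose. CD9, a tetraspanin of platelets and many other cells, went from 9.64 ± 0.0292 FPKM in DMSO to 21.4 ± 4.18 FPKM in 2 µM CBP30 and 28.5 ± 1.13 FPKM in 5 µM CBP30, and to 15.2 ± 0.0685 and 17.8 ± 0.814 FPKM in I-CBP112. Its log2 difference was 1.47 in 5 µM CBP30 (limma adjusted p = 8.62e-05) and 0.82 in 5 µM I-CBP112 (limma adjusted p = 0.00840), and in 2 µM I-CBP112 it was not called (0.61, limma adjusted p = 0.0575). TBXA2R, the thromboxane receptor, was at 14.7 FPKM in DMSO and 32.8 and 22.8 FPKM in CBP30. In I-CBP112 it was at 19.8 FPKM at 2 µM, where it was not called, and at 22.8 FPKM at 5 µM (limma adjusted p = 0.0484). PEAR1, a platelet aggregation receptor, fell in all 4 treatments, from 3.14 FPKM to between 1.24 and 2.09 FPKM. F2RL3, the thrombin receptor PAR4, fell with CBP30 from 7.30 to 4.01 and 3.74 FPKM. GP6, the collagen receptor, was called lower in 5 µM CBP30 and higher in 5 µM I-CBP112, with log2 differences of -0.40 and 0.48.

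Of the 10 tested granule genes, 5 were lower in 2 µM CBP30, and 3 were lower and 3 higher in 5 µM CBP30. Among all tested genes, 16.3% were lower in 2 µM CBP30, and 25.4% were lower and 21.2% higher in 5 µM CBP30. The 5 µM granule counts were thus near the shares over all genes. THBS1, which encodes thrombospondin 1, fell from 5.14 to 1.86 and 2.70 FPKM with CBP30. ANGPT1 and LTBP1 fell at both CBP30 concentrations, ANGPT1 from 16.8 to 11.9 and 11.8 FPKM. CLU, the chaperone clusterin, rose in 5 µM CBP30, from 0.336 to 1.82 FPKM. PPBP, F13A1 and VWF did not pass the expression minimum.

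Of the 13 tested genes for cytoskeleton and signalling, 8 were lower and 1 higher in 2 µM CBP30, and 6 lower and 3 higher in 5 µM CBP30. The shares of all tested genes were 16.3% lower and 15.9% higher at 2 µM, and 25.4% lower and 21.2% higher at 5 µM. FERMT3, the kindlin that activates the ITGA2B and ITGB3 integrin, fell from 4.32 to 2.37 and 1.18 FPKM. MYLK, the myosin light chain kinase, fell in all 4 treatments, from 3.52 FPKM to 0.671 and 0.694 FPKM in CBP30 and 1.64 and 1.40 FPKM in I-CBP112. MYL9, a myosin light chain, rose with CBP30 from 2.09 ± 0.675 to 5.50 ± 1.47 and 5.41 ± 0.0720 FPKM. FLNA, the filamin that anchors the glycoprotein Ib complex, was called lower at 2 µM (-0.32) and higher at 5 µM (0.61). The 2 µM difference of FLNA was -0.19 without replicate 1 of 2 µM CBP30 and -0.45 without replicate 2, and its call was lost without either DMSO sample (limma adjusted p = 0.114 and 0.0998) or either 5 µM CBP30 sample (both 0.0507). RGS10 was called in 5 µM CBP30 only (-0.85).

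**Figure D2:**
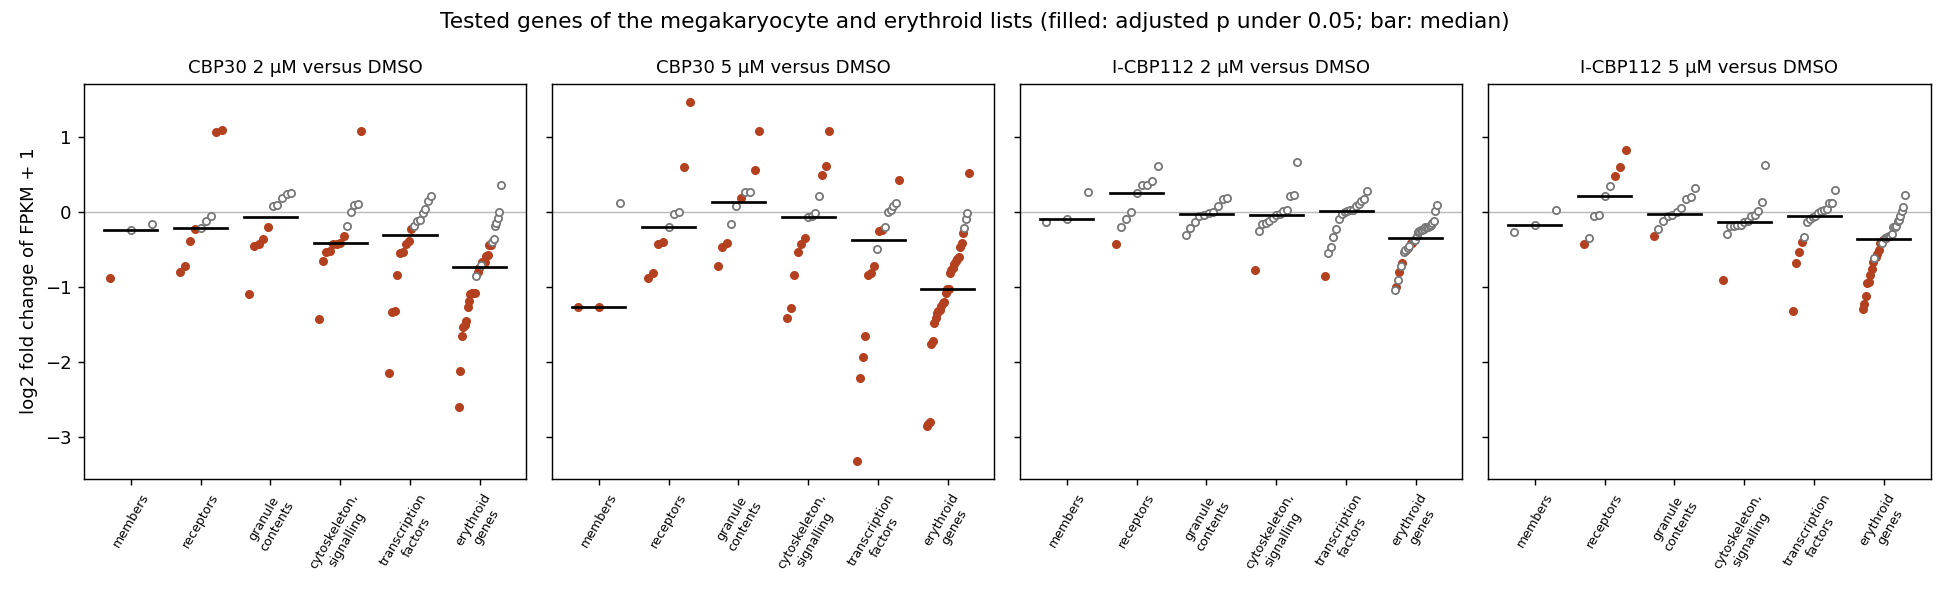
Log2 fold change of FPKM + 1 against DMSO for every tested gene of the 9 members, the other megakaryocyte lists and the erythroid list, 1 panel for each treatment, with filled points for a limma adjusted p under 0.05 and a bar for each list's median. The erythroid medians lie at -0.73 and -1.03 with CBP30, while the granule list has a median of 0.12 in 5 µM CBP30 and holds called genes on both sides of 0.

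Many, but not all, of the listed transcription factors fell with CBP30. Of 16 tested factors, 9 were lower and 0 higher in 2 µM CBP30, where 16.3% of all tested genes were lower and 15.9% higher. In 5 µM CBP30, 9 were lower and 1 higher, against 25.4% of all tested genes lower and 21.2% higher. The factor that was higher was TAL1 (17.4 to 23.8 FPKM). LMO2, a bridging protein of the GATA1 and TAL1 complex, fell from 88.6 to 19.1 and 7.96 FPKM. GFI1B, a repressor needed by both lineages, fell from 34.1 to 13.1 and 6.55 FPKM, and NFE2, which is needed for platelet formation, from 77.8 to 30.4 and 19.6 FPKM. GATA1 fell from 170 to 95.3 and 53.1 FPKM and ETS1 from 5.61 to 3.55 and 2.68 FPKM. RUNX1, between 15.2 and 21.6 FPKM in the samples, was not called in any treatment. Its log2 differences were -0.13 and 0.02 with CBP30 (limma adjusted p = 0.364 and 0.912) and 0.17 and 0.12 with I-CBP112 (limma adjusted p = 0.549 and 0.569). ETV6, MEIS1, LYL1 and MKL1 were not called in any treatment either. With I-CBP112, LMO2 was called at 2 µM, at 48.4 FPKM, and LMO2, GFI1B, NFE2 and GATA2 were called lower at 5 µM, while GATA1, at 145 and 134 FPKM, was not. Of all tested genes, 0.735% were called lower at 2 µM I-CBP112 and 3.28% at 5 µM.

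**Figure D3:**
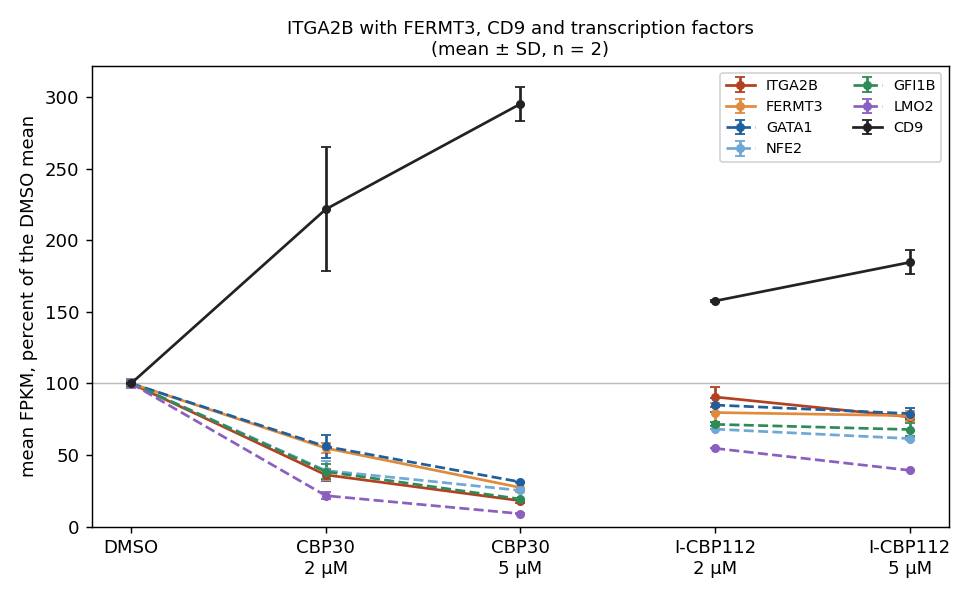
Mean FPKM as a percent of the DMSO mean (± SD, n = 2) for ITGA2B, FERMT3, CD9 and the factors GATA1, NFE2, GFI1B and LMO2 in the 5 conditions. At 5 µM CBP30, ITGA2B stands at 18.1% and CD9 at 295% of DMSO, and at 5 µM I-CBP112 ITGA2B stands at 76.6% and CD9 at 185%.

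The erythroid genes fell in larger numbers. Of 34 listed genes for globins, heme synthesis, red cell membrane and related functions, 30 were tested. In 2 µM CBP30, 21 were lower and 0 higher (median -0.73), against 16.3% of all tested genes lower and 15.9% higher. In 5 µM CBP30, 26 were lower and 1 higher (median -1.03), against 25.4% lower and 21.2% higher. I-CBP112 gave 6 lower at 2 µM and 14 at 5 µM, against 0.735% and 3.28% of all tested genes. It gave 0 higher and medians of -0.35 and -0.36. These I-CBP112 counts ran from 1 to 20 and from 4 to 23 when 1 sample was left out, and were highest without a sample of 2 µM CBP30. HEMGN, an erythroid nuclear protein, went from 44.3 to 6.45 and 5.25 FPKM with CBP30, HBZ, embryonic zeta globin, from 609 to 143 and 84.6 FPKM, and KLF1, the erythroid transcription factor, from 65.3 to 22.2 and 8.44 FPKM. HBG2, fetal globin, went from 439 to 141 and 128 FPKM, though its reads cannot be divided surely from those of its near-identical copy HBG1. BLVRB, biliverdin reductase B, fell from 170 to 81.5 and 50.6 FPKM. The exception was EPB41, a membrane skeleton protein of many cell types, which rose from 84.6 to 122 FPKM in 5 µM CBP30. Its call was near the threshold (log2 difference 0.52, limma adjusted p = 0.0438) and was lost with no expression minimum.

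Set beside each other, the summed level of the 34 erythroid genes was 3320 to 3378 FPKM in DMSO and 1370 to 1393 FPKM in 5 µM CBP30. The sum over the 9 megakaryocyte genes, nearly all of it GP1BB, was 111 to 119 FPKM in DMSO and 46.6 to 47.7 FPKM in 5 µM CBP30. The sum over the 55 other megakaryocyte genes was 611 to 614 FPKM in DMSO and 617 to 620 FPKM in 5 µM CBP30, and in 2 µM CBP30 it was 538 to 568 FPKM. Abundant genes weigh most in that sum, and a similar sum does not mean that the genes were unchanged. In 5 µM CBP30, FLNA went from 48.6 to 74.9 FPKM and RGS10 from 84.4 to 46.5 FPKM. In 5 µM CBP30 the loss of erythroid transcripts was thus accompanied by lower levels of ITGA2B and of the GP1BB row. That row cannot be read apart from SEPT5. GP1BA was not called at this concentration, and FLI1 was higher at 0.0964 FPKM. Of the 32 other tested megakaryocyte genes, 8 were called higher, among them CD9, TBXA2R and MYL9, and 13 lower. Of all tested genes 21.2% were higher and 25.4% lower at this concentration, so the number higher was near that share. In 2 µM CBP30 only ITGA2B of the 3 tested members was called lower, where 16.3% of all tested genes were lower. In 5 µM I-CBP112, 14 of 30 erythroid genes were called lower and none of the 3 members, against 3.28% of all tested genes. Of the 32 other megakaryocyte genes, CD9, TBXA2R and GP6 were called higher there and PEAR1, THBS1 and MYLK lower. These 3 higher and 3 lower stand against 3.84% of all tested genes higher and 3.28% lower. GP9, SELP and PF4 were listed at 0 in all 10 samples.

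Markers of other blood cells were read in the same samples. Of 9 granulocyte and monocyte genes, the sum was 40.7 to 41.5 FPKM in DMSO and 46.8 to 55.6 FPKM in the treated samples, most of it LYZ, with ELANE at 0 throughout and MPO at or below 0.0288 FPKM. LYZ was called higher in all 4 treatments, and ITGAM was called lower in 5 µM CBP30 (-0.33, limma adjusted p = 0.0311). Of 7 lymphocyte genes, the sum was 17.2 to 19.9 FPKM in DMSO, 23.6 to 31.0 FPKM in the CBP30 samples and 17.9 to 23.9 FPKM in the I-CBP112 samples, with MS4A1 and HLA-DRA at 0 throughout. CD3E and CD3D were called higher at both CBP30 concentrations. The part of these genes in the differences above was not tested.

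The genes whose log2 profile over the 10 samples was most like that of ITGA2B, out of 11904 genes ranked, were ADAMTSL4, ARHGAP6 and PRDM9, with Pearson's r of 0.995, 0.993 and 0.993. For GP1BB they were APEH, PRPF19 and RUVBL2, with r of 0.997, 0.997 and 0.989. The points share the same libraries and treatments, so these values are a description. The genes listed for GP1BB and ITGA2B differed, although both members were lowest in 5 µM CBP30. Only the genes highest in each ranking are listed, so this does not show how alike the profiles were. GP1BB, APEH, PRPF19 and RUVBL2 each had their largest SD in 2 µM CBP30, at 45.4, 6.30, 12.2 and 24.2 FPKM in that order. The replicates of that group differed with transcript length. Whether the likeness to GP1BB rests on that group was not tested.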

How the data were processed

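RNA-seq data of K562 cells from 10 samples in 5 groups were used. According to the study's methods and the submitters' processing notes, the authors selected polyadenylated RNA for stranded libraries, ran single-end sequencing and used the Nextpresso pipeline with the hg19 genome. The notes name FastQC, TopHat2 2.0.10, Bowtie 1.0.0, SAMtools 0.1.19, Cufflinks 2.2.1 and Cuffnorm. The gene annotation was not given in the sources used here. The authors deposited 1 table in FPKM, each sample in a column of its own, without read counts.

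Differences were computed here on log2(FPKM + 1) using limma 3.58.1 (R 4.3.3) with moderated variances that follow a trend. The 12788 of 23284 genes that averaged 0.5 FPKM or more were tested. All 5 groups entered the same model, with 5 residual and 2.15 prior degrees of freedom. The calls used a Benjamini-Hochberg adjusted p under 0.05, two-sided. The code was tested on simulated data. The variance was pooled over the 5 groups, so p-values measure the spread between the replicates of all 10 samples. The study calls these replicates biological, and part of their spread may be technical. Read depth is not part of FPKM, so relative depth was estimated from 1263 genes found in 2 to 4 libraries, and 1 FLI1 step was taken as 1 read. Larger differences of a gene between 2 libraries were left out of that estimate, which holds it near equal depth. Summed FPKM ranged from 547504 to 689095.

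The members, gene lists and promoter words were chosen with earlier results of these data known. Beside the members and their overlapping or near-identical neighbours, up to 5 genes of each list were named: those called in at least 1 treatment, with a highest group mean of 1 FPKM or more and the largest fold changes. A gene that this rule named is not reported here. EPB41, TAL1, GATA2, RUNX1, ETV6, MEIS1, LYL1, MKL1, LYZ, ITGAM, CD3E, CD3D and the genes at or near 0 were named after their values were seen. Gene positions and lengths came from GENCODE on GRCh37, where 92.3% of symbols matched. Alternatives were another pseudocount, no expression minimum, median centring, quantile normalization, a fit of only the groups compared, a replicate block, removal of the trend with transcript length, and leaving out each sample.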

Additional observations from a re-analysis of the deposited data

Results flagged for a closer look

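The step from 2 to 5 µM of the SEPT5 row that overlaps GP1BB (listed as sep-05) differed between the compounds, by -0.86 on the log2 scale (CBP30 minus I-CBP112, 95% interval -1.23 to -0.49, limma adjusted p = 0.0343), since the row fell from 80.2 to 37.7 FPKM with CBP30 and was at 144 and 125 FPKM with I-CBP112. The difference was tested as an interaction term. The call was lost when only the groups compared were fitted (adjusted p = 0.0797), with no expression minimum (adjusted p = 0.0508), with a replicate block (adjusted p = 0.0629) and without any 1 sample of DMSO, 5 µM CBP30 or I-CBP112, while the difference stayed between -1.02 and -0.70.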

How the results depend on the processing

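Of 880 counts of calls recomputed under the alternatives, 692 were within 1.5 times the value reported, and of 2453 differences of single genes 2205 kept their direction and side of the threshold. The call for ITGA2B against DMSO held under every alternative run for both CBP30 concentrations, as did that for GP1BB in 5 µM CBP30. Where values changed, the cause was not tested unless the setting itself tests fewer samples or genes.

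With a fit of only the groups compared, which leaves few degrees of freedom, the members called were 1 lower in 5 µM I-CBP112, 0 lower from 2 to 5 µM CBP30 and 0 lower in 2 µM CBP30 against 2 µM I-CBP112. Erythroid genes called lower were 8 in 2 µM CBP30 and 1 in 2 µM I-CBP112. Other megakaryocyte genes were 0 higher and 3 lower in 2 µM CBP30 and 0 lower in 2 µM I-CBP112, and transcription factors 3 lower in 2 µM CBP30, 2 lower in 2 µM I-CBP112 and 1 higher in 5 µM I-CBP112. With no expression minimum, members called were 2 lower in 2 µM CBP30, 1 higher in 5 µM CBP30, 2 higher from 2 to 5 µM CBP30 and 1 higher (ITGB3) in 5 µM CBP30 against 5 µM I-CBP112. Erythroid genes higher in 5 µM CBP30 were then 0, and other megakaryocyte genes 5 higher in 2 µM CBP30 and 1 lower in 2 µM I-CBP112. With 0.1 added as well, chosen after seeing the data, members were 2 lower in 2 µM CBP30, 1 higher in 5 µM CBP30 and 3 higher from 2 to 5 µM CBP30, and the other genes 5 higher in 2 µM CBP30, 0 lower in 2 µM I-CBP112 and 1 higher in 5 µM I-CBP112, with 0 erythroid genes higher in 5 µM CBP30. With 0.1 added and the minimum kept, 1 member (GP1BA) was higher from 2 to 5 µM CBP30, 1 erythroid gene higher in 2 µM CBP30, 2 factors lower, and 1 other gene higher and 1 lower, in 2 µM I-CBP112. Quantile normalization gave 1 member lower in 5 µM I-CBP112 (ITGA2B), 1 erythroid gene higher in 2 µM CBP30, and 1 other gene higher and 2 factors lower in 2 µM I-CBP112. With the length trend removed, GP1BA was called higher from 2 to 5 µM CBP30 (1 member) and its step differed by 0.71 between the compounds. That setting gave 16 erythroid genes lower, 1 other gene higher, and 1 factor higher and 5 lower in 2 µM I-CBP112, 5 other genes lower and 1 factor higher in 5 µM I-CBP112, and 1 factor higher in 2 µM CBP30. The GP1BB locus as a sum, also chosen after seeing the data, gave 2 members lower in 2 µM CBP30.

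Deviations of same-numbered samples correlated between -0.0681 and 0.0939 in 10 pairs of groups and 0 were over 0.1. No strong effect shared by replicate number was thus seen, and the samples were not paired in the main fit. These correlations cannot show whether same-numbered samples were handled together. A replicate block gave 1 member lower, in place of 2, in 2 µM CBP30 against 2 µM I-CBP112, 1 other gene lower in 2 µM I-CBP112, and 111 in place of 205 calls over all genes in 2 µM I-CBP112.

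Leaving out 1 sample at a time, members called lower ranged from 1 to 2 in 2 µM CBP30, 0 to 1 in 5 µM I-CBP112, 0 to 2 from 2 to 5 µM CBP30 (with 0 to 1 higher), 1 to 2 in 5 µM CBP30 against I-CBP112 and 1 to 3 in 2 µM. Erythroid genes ranged from 0 to 2 higher in 2 µM CBP30, 0 to 1 higher in 5 µM CBP30, 1 to 20 lower in 2 µM I-CBP112 and 4 to 23 lower in 5 µM I-CBP112. Other megakaryocyte genes ranged from 3 to 5 higher and 10 to 17 lower in 2 µM CBP30, 0 to 5 higher and 0 to 4 lower in 2 µM I-CBP112, and 0 to 5 higher and 1 to 8 lower in 5 µM I-CBP112. Factors ranged from 0 to 1 higher in 2 µM CBP30 and in both I-CBP112 groups, 6 to 11 lower in 2 µM CBP30, and 1 to 5 and 1 to 6 lower in 2 and 5 µM I-CBP112. The difference between the steps ranged from 0.41 to 0.65 for GP1BA and from -1.47 to -0.51 for GP1BB. Over all genes, both I-CBP112 counts were highest without a sample of 2 µM CBP30, when 1160 and 1159 genes in all were called in 2 µM I-CBP112 and 2937 and 2935 (of 910 with all samples) in 5 µM I-CBP112.

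Over all genes, the fit of only the groups compared called 307 in place of 4111 in 2 µM CBP30, 28 in place of 205 in 2 µM I-CBP112, 1661 in place of 910 in 5 µM I-CBP112, 6 in place of 4979 from 2 to 5 µM CBP30, and 6556 in place of 4020 and 14 in place of 1993 between the compounds at 5 and 2 µM. The length correction gave 475 in 2 µM and 1612 in 5 µM I-CBP112.

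Of 15 differences that changed sign, 14 were not called after the change. GP1BA in 5 µM I-CBP112 became -0.0707 with quantile normalization, and -0.0308 to 0.0749 without a sample. ANGPT1 in 2 µM I-CBP112 became 0.00208 with quantile normalization and RGS10 in 2 µM CBP30 became 0.0267 with median centring. Leaving out 1 sample, GP1BB ranged from -0.73 to 0.23 in 2 µM CBP30, from -0.30 to 0.0245 in 2 µM I-CBP112, from -0.20 to 0.13 between the I-CBP112 concentrations (0.0242 without replicate 2 of 5 µM) and from -0.59 to 0.37 between the compounds at 2 µM (0.0506 without replicate 2 of 2 µM I-CBP112). RGS10 in 2 µM CBP30 ranged from -0.17 to 0.16, where it was called higher without replicate 2 of that group (limma adjusted p = 0.0436), and was 0.0101 without replicate 2 of DMSO. LTBP1 ranged from -0.12 to 0.00845 in 2 µM and -0.11 to 0.0131 in 5 µM I-CBP112, and ETS1 from -0.0246 to 0.0403 in 5 µM I-CBP112. With 2 samples per group and few reads behind FLI1, ITGB3 and PLEK, small differences of these genes were not detectable at this depth.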
